A study of Mus musculus with 6 samples.

Results

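The genes described here encode the subunits of the nuclear RNA polymerases I, II and III, the mitochondrial RNA polymerase, and the initiation factors of Pol I and Pol III. They were taken by symbol from the array annotation: every gene whose name begins with Polr1, Polr2, Polr3 or Polrmt, together with Ubtf, Rrn3, Taf1a to Taf1d, Brf1, Brf2, Bdp1 and Gtf3c1 to Gtf3c6. The rule found 40 of the 19505 genes measured, each through a single probe set, and Polr2a, Polr2m and Taf1d were not analysed here. The genes were put together with results of these arrays already known.

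The tested cells were mouse fibrosarcoma cells of C57BL/6 background transduced with an shRNA directed at Rras2 (shRras2, construct sh#89, replicates 4 to 6). Their controls were the same fibrosarcoma cells transduced with the pLKO vector (replicates 1 to 3). Both groups carry Rras2(Q72L), an oncogenic form of the RAS-related GTPase R-RAS2, and were grown in DMEM with 10% fetal bovine serum. A single shRNA was used. The labels are silent on whether replicates were cultured apart, so the p-values reflect array-to-array spread that could be purely technical. Each sample was hybridised to an Affymetrix array, and all values below are log2 RMA signals, so that a difference of 1 is a 2-fold change.

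Pol I transcribes the precursor of the large ribosomal RNAs in the nucleolus, Pol II transcribes messenger RNA precursors, and Pol III transcribes transfer RNAs and other short RNAs. The enzymes are built on a common plan, with some subunits present in all of them and some in Pol I and Pol III alone. Growth-factor signalling through ERK and mTOR and the transcription factor MYC are known to raise Pol I and Pol III activity in growing cells, largely by acting on Rrn3, Ubtf, TFIIIB and the Pol III repressor Maf1.

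The knockdown itself was visible on every array. Rras2 gave 9.09, 9.69 and 9.21 in the shRras2 arrays, against 10.67, 10.75 and 10.82 in the pLKO arrays. Its signal in shRras2 cells was 37.6% of that in pLKO cells (limma adjusted p = 0.00163; exact two-sided permutation p = 0.1, the smallest possible with 3 against 3). Among all genes, 584 were higher and 433 lower in shRras2 cells, and 506 were higher and 567 lower after median centring of the arrays. Of the fibroblast markers, 5 of 7 lay in both groups above 7.92, while Col1a2 and Thy1 lay below it. Under this signal, called the background level here, fell 95% of the single-array values of the negative-control probe sets. The fibroblast markers Col3a1 and Pdgfrb passed as higher in shRras2 cells (log2 differences 0.69 ± 0.15 and 0.37 ± 0.09 SE, limma adjusted p = 0.0313 and 0.0486), and none passed as lower. None of 19 leukocyte, endothelial, epithelial and adipocyte markers lay above the background level in either group, and 0 of them passed the threshold. Of the skeletal muscle markers, 7 of 8 were higher in shRras2 cells, with a summed linear signal of 4682 to 8483 in the shRras2 arrays, against 754 to 995 in the pLKO arrays. The part of the fibroblast and muscle markers in the polymerase values was not tested, and in bulk RNA fewer cells of a type and less RNA per cell cannot be told apart.

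In shRras2 cells, transcripts of the 2 large catalytic subunits of Pol I were lower. So were those of 1 of 6 Pol II subunits and 2 of 9 Pol III subunits. The members that fell were Polr1a, Polr1b, Polr2d, Polr3b and Polr3g, by 0.42 to 0.81 on the log2 scale (limma, Benjamini-Hochberg adjusted p of 0.00617 to 0.0422). Only Polr2d passed in every fit that left out 1 array. No initiation factor of Pol I or Pol III passed, and subunits were not tested against factors. Taf1a, Rrn3, Gtf3c4 and Gtf3c5 were lower in shRras2 cells without overlap, with Gtf3c4 nearest to the threshold (log2 difference -0.37, limma adjusted p = 0.059). Taf1b, Ubtf, Brf1 and Brf2 had differences above 0. Thus 5 of 40 members (12.5%) were lower and 0 were higher, beside 2.22% lower and 2.99% higher among all genes (5.21% in either direction). As the genes were grouped with these results in view, the shares are a description. The groups did not overlap for 15 members, all lower in shRras2 cells, beside 13.9% of all genes lower without overlap and 11.6% higher without overlap (25.5% together). The median log2 difference of the 40 members was -0.12, and that of all genes was -0.01.

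**Figure D1:**
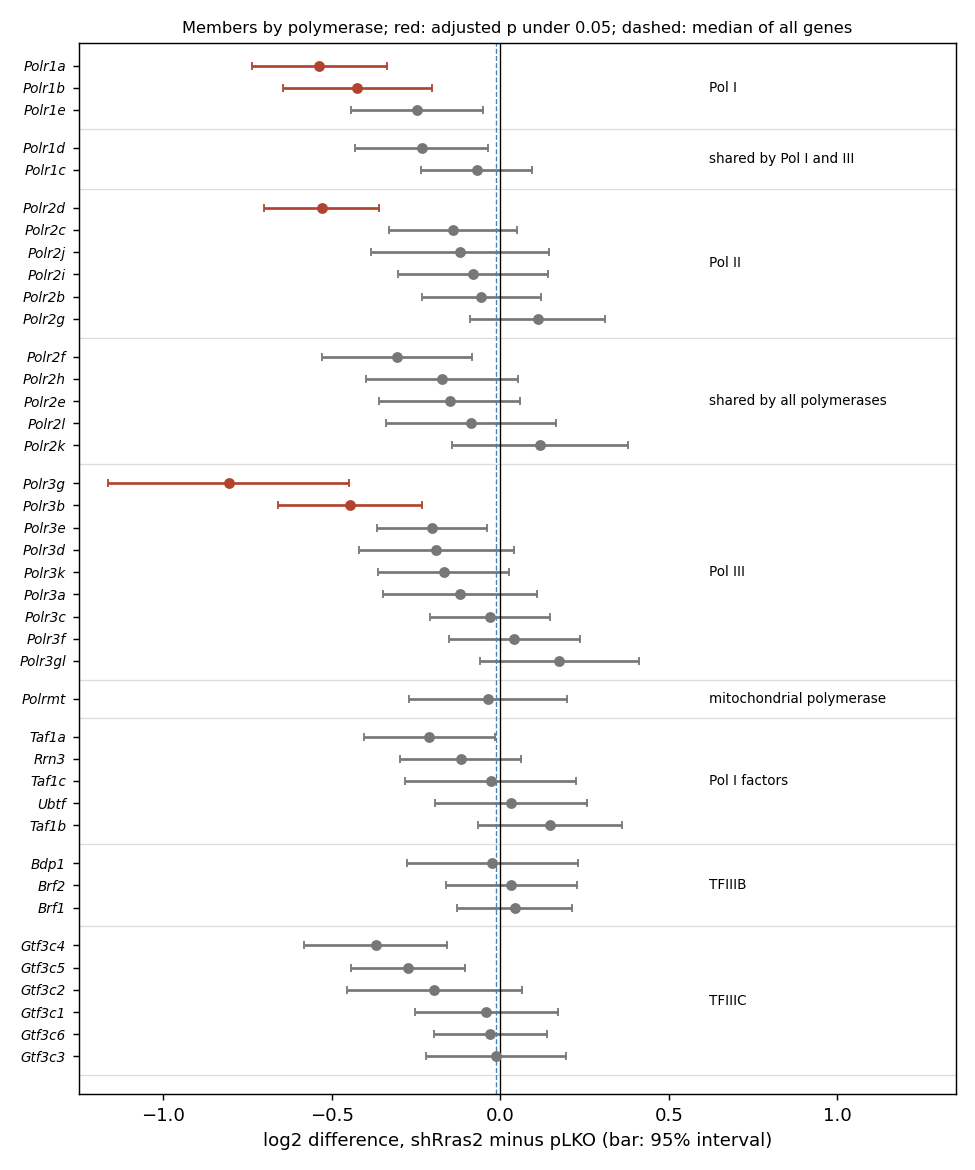
Log2 difference (shRras2 minus pLKO) of each of the 40 members, grouped by polymerase, with 95% intervals from limma; red marks an adjusted p under 0.05 and the dashed line the median of all genes (-0.01). The red points are Polr1a, Polr1b, Polr2d, Polr3g and Polr3b, between -0.81 and -0.42, while the members of TFIIIB lie between -0.02 and 0.04.

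Promoter sequences are shown for the members that fell and have a RefSeq window (GRCm38.p6), and for Polr3gl, the paralog of Polr3g, which did not pass the test. Each window runs 5′ to 3′ on the gene's strand, from 250 bases before the annotated start through 50 bases after it, in lower case. Capitals mark matches to the E-box CACGTG, to which MYC and related factors bind, or to the core ETS motif CCGGAAG, which reads CTTCCGG on the other strand.
Polr1a, chr6:71908803-71909102, plus strand: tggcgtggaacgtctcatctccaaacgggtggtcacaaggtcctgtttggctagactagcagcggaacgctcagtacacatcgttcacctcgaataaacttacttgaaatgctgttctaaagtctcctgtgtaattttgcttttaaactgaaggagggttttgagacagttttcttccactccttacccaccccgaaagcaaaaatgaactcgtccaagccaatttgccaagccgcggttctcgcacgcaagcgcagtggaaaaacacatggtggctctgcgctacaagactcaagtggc
Polr1b, chr2:129100746-129101045, plus strand: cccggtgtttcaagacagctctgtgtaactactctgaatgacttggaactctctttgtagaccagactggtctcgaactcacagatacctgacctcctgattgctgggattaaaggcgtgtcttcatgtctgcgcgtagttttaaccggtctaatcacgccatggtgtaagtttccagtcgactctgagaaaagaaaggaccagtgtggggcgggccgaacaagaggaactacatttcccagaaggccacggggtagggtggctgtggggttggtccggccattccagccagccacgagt
Polr3b, chr10:84622048-84622347, plus strand: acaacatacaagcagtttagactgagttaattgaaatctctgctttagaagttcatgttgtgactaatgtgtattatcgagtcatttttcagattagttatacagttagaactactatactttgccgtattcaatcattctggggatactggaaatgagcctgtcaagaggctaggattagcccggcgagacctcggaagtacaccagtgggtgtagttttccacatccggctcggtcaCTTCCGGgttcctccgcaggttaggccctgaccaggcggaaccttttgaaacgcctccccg
Polr3g, chr13:81710964-81711263, minus strand: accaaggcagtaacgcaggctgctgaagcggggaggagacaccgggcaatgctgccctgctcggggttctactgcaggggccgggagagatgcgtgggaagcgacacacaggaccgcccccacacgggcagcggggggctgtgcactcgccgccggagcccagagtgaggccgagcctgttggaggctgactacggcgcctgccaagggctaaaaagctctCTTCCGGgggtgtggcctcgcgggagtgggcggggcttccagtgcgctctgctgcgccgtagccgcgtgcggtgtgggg
Polr3gl, chr3:96594132-96594431, minus strand: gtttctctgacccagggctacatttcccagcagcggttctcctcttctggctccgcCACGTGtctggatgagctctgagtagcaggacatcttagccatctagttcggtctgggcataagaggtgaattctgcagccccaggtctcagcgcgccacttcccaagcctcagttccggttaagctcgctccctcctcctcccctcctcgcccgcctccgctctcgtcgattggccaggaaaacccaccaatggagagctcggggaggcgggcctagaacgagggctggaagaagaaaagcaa
The windows of the Pol I genes Polr1a and Polr1b held neither motif. Those of the Pol III genes Polr3b and Polr3g each held CTTCCGG, starting 11 and 29 bases before the annotated start, and that of Polr3gl held CACGTG, starting 194 bases before it. None of these 5 windows held TATAAA on either strand. Over both strands, the ETS motif was present in a window of 16 of the 33 members that had one, beside 13.2% of the 15691 tested genes with a window and 8.86% of all 32851 windows. The E-box was found for 6 of the 33 members, beside 9.26% of tested genes and 7.15% of all windows, and TATAAA for 3 of the 33, beside 14.6% of tested genes and 13.6% of all windows. These are letter matches in sequence of unequal base composition (median GC 59.3% for the members' windows and 52.7% for all windows), not binding sites.

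All the Pol I subunits named by the rule had non-overlapping groups. Polr1a, the largest subunit and part of the catalytic centre, gave 9.73, 9.87 and 9.89 in the shRras2 arrays, against 10.33, 10.28 and 10.48 in the pLKO arrays. Every shRras2 array lay at least 0.39 below every pLKO array, and shRras2 signal was 68.9% of pLKO signal (log2 difference -0.54 ± 0.09 SE, n = 3 each, limma adjusted p = 0.0111). Without shRras2 replicate 4, the lowest array, the adjusted p was 0.0515, and in the other 5 fits that left out an array it stayed under the threshold.

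Polr1b, the other large subunit, which completes the active centre, gave 8.55, 8.71 and 8.65 in the shRras2 arrays, against 8.93, 9.03 and 9.22 in the pLKO arrays. Its log2 difference was -0.42 ± 0.10 (SE, n = 3 each, limma adjusted p = 0.0422), with pLKO replicate 3 the highest array. This call was the closest to the threshold: it was lost without pLKO replicate 1, 2 or 3 or shRras2 replicate 4 or 6 (adjusted p of 0.0614 to 0.146). Without shRras2 replicate 5 the limma adjusted p was 0.049999982, practically at the threshold. Polr1e, a peripheral subunit that takes part in initiation, gave 8.65, 8.82 and 8.83 in the shRras2 arrays, against 8.94, 9.01 and 9.09 in the pLKO arrays. It did not pass (-0.25 ± 0.09 SE, limma adjusted p = 0.157) although all its shRras2 arrays lay below all its pLKO arrays.

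Polr1c and Polr1d encode a pair of small subunits on which both Pol I and Pol III are assembled. Polr1d gave 9.78, 9.98 and 10.01 in the shRras2 arrays, against 10.16, 10.19 and 10.13 in the pLKO arrays. Its partner Polr1c gave 9.65, 9.60 and 9.67 in the shRras2 arrays, against 9.70, 9.73 and 9.70 in the pLKO arrays. In both genes the groups were apart, by a small step in Polr1c, and neither passed (log2 differences -0.23 ± 0.09 and -0.07 ± 0.07 SE, limma adjusted p = 0.182 and 0.67). The Pol I subunits that the array lists under the older symbols Twistnb, Cd3eap and Znrd1 differed by -0.10 ± 0.08, -0.04 ± 0.09 and -0.03 ± 0.10 (SE), with overlapping groups. So of the Pol I subunits that no other polymerase uses, the 2 large ones fell, and the 4 smaller ones measured did not pass.

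The Pol I initiation factors bind the ribosomal DNA promoter (Ubtf and the SL1 complex, which holds Taf1a, Taf1b and Taf1c) or bring the polymerase to it (Rrn3). Ubtf gave 9.91, 9.97 and 10.20 in the shRras2 arrays, against 10.00, 9.89 and 10.09 in the pLKO arrays, and its groups overlapped. The 95% interval of its log2 difference ran from -0.19 to 0.26, and the sign of the difference (0.03) turned to -0.0087 under median centring. Rrn3, the link between Pol I and growth signalling, gave 10.49, 10.37 and 10.54 in the shRras2 arrays, against 10.61, 10.59 and 10.55 in the pLKO arrays. Its groups lay just apart, with an interval of -0.30 to 0.06 (limma adjusted p = 0.481).

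Within SL1 the members differed in sign. Taf1a gave 8.22, 8.36 and 8.37 in the shRras2 arrays, against 8.55, 8.43 and 8.60 in the pLKO arrays, without overlap and without passing (limma adjusted p = 0.223). Taf1b gave 8.20, 8.10 and 8.39 in the shRras2 arrays, against 8.05, 8.06 and 8.14 in the pLKO arrays, where the groups overlapped (limma adjusted p = 0.453). Taf1c differed by -0.03 ± 0.11 (SE). The TATA-binding protein gene Tbp, whose product is shared by SL1, TFIIIB and the Pol II factor TFIID, differed by -0.04 ± 0.09 (SE, limma adjusted p = 0.87).

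Pol III had the member with the lowest log2 difference of the 40. Polr3g gave 7.09, 7.69 and 7.43 in the shRras2 arrays, against 8.25, 7.99 and 8.39 in the pLKO arrays. All shRras2 arrays lay below the pLKO arrays, but with a wide spread in which shRras2 replicate 5 came nearest to the controls. The signal in shRras2 cells was 57.2% of that in pLKO cells (log2 difference -0.81 ± 0.16 SE, n = 3 each, limma adjusted p = 0.0229). The shRras2 mean (7.40) was under the background level and the pLKO mean (8.21) over it, so the size of the change is imprecise and may be understated. The call was lost without pLKO replicate 1 or 3 or shRras2 replicate 4 or 6 (adjusted p of 0.068 to 0.0898).

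Polr3g and Polr3gl encode alternative forms of the same subunit, and a Pol III complex holds one or the other; Polr3g is known from human and mouse work as the form abundant in stem cells and many tumor cells. Polr3gl gave 7.48, 7.58 and 7.45 in the shRras2 arrays, against 7.21, 7.23 and 7.54 in the pLKO arrays. Its groups overlapped through pLKO replicate 3, and the log2 difference of 0.17 ± 0.10 (SE, 95% interval -0.06 to 0.41) did not pass. Both its group means were under the background level, so a change could be missed. Whether the paralogs changed differently was not tested, since the pair was singled out after its values were seen.

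Of the large subunits of Pol III, Polr3b fell and Polr3a did not pass. Polr3b, which with Polr3a forms the active centre, gave 9.12, 9.13 and 9.33 in the shRras2 arrays, against 9.65, 9.74 and 9.52 in the pLKO arrays. It fell by 0.45 ± 0.09 (SE, n = 3 each, limma adjusted p = 0.0302) to 73.4% of the pLKO signal, and of the fits without 1 array the call stayed only in that without shRras2 replicate 6 (adjusted p = 0.0462, against 0.0509 to 0.116 without pLKO replicate 1, 2 or 3 or shRras2 replicate 4 or 5). Polr3a, the largest subunit, gave 8.78, 9.07 and 9.09 in the shRras2 arrays, against 9.15, 9.05 and 9.11 in the pLKO arrays. Only shRras2 replicate 4 stood below the controls, and the log2 difference was -0.12 ± 0.10 (SE, 95% interval -0.35 to 0.11, limma adjusted p = 0.58). The difference between the changes of Polr3b and Polr3a was not tested, and their intervals overlap (-0.66 to -0.23 for Polr3b).

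Of the remaining Pol III subunits, none passed. Polr3d and Polr3e encode a pair of subunits that acts in initiation and termination, and they differed by -0.19 ± 0.10 and -0.20 ± 0.07 (SE, limma adjusted p = 0.358 and 0.163). Polr3e had the tighter arrays, with 8.40 to 8.45 in shRras2 and 8.61 to 8.66 in pLKO and no overlap. Polr3k, needed for termination, differed by -0.17 ± 0.09 (SE), and Polr3c and Polr3f, the partners of the Polr3g subunit in the initiation subcomplex, by -0.03 ± 0.08 and 0.04 ± 0.09 (SE), with 95% intervals of -0.21 to 0.15 and -0.15 to 0.24. Their changes were not tested against that of Polr3g.

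**Figure D2:**
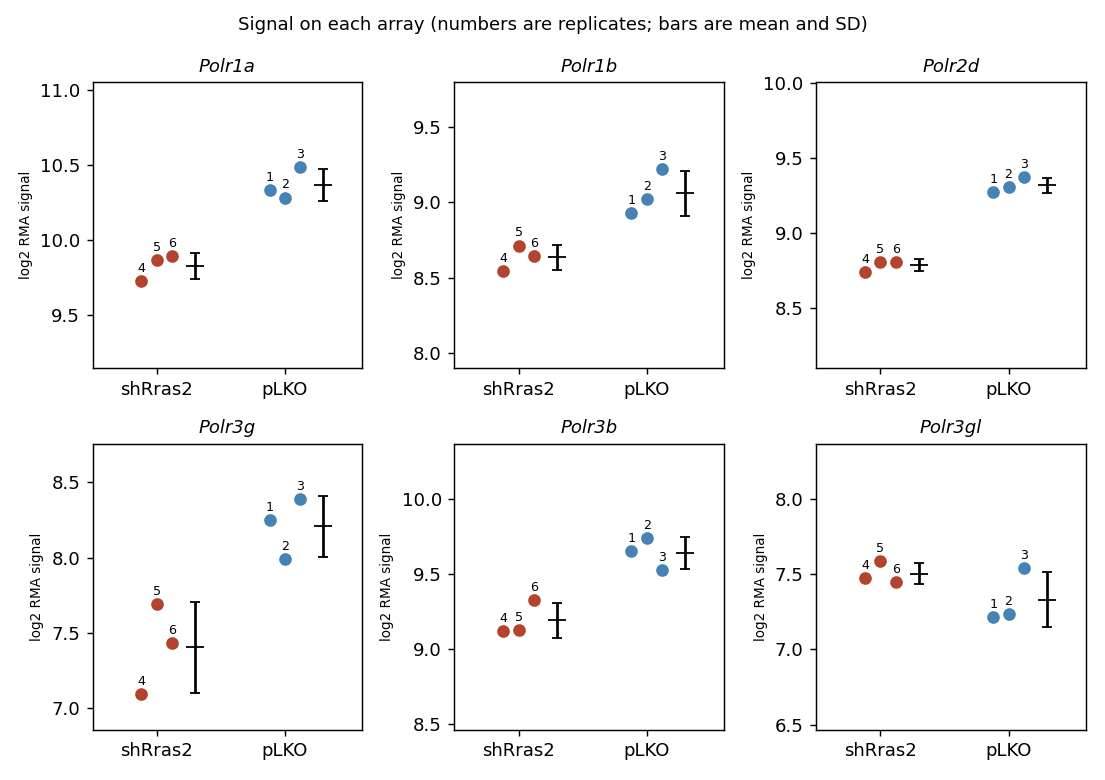
Log2 RMA signal on each array (points, numbered by replicate) with the group mean and SD beside them, for the 5 members that fell and for Polr3gl; every vertical axis spans the same number of log2 units. In Polr1a, Polr1b, Polr2d, Polr3g and Polr3b all shRras2 points lie below all pLKO points, and in Polr3gl the groups overlap (7.45 to 7.58 in shRras2, 7.21 to 7.54 in pLKO).

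TFIIIB places Pol III at its promoters, with Brf1 at transfer RNA genes and Brf2 at promoters that lie wholly upstream. Brf1 gave 8.24, 8.36 and 8.34 in the shRras2 arrays, against 8.28, 8.29 and 8.25 in the pLKO arrays. Brf2 gave 7.79, 7.70 and 7.84 in the shRras2 arrays, against 7.63, 7.78 and 7.82 in the pLKO arrays, with both means under the background level. Bdp1, the third component beside Tbp, gave 8.12, 8.53 and 8.29 in the shRras2 arrays, against 8.36, 8.41 and 8.24 in the pLKO arrays. The groups overlapped in all of them, with log2 differences of 0.04, 0.03 and -0.02 and 95% intervals that together ran from -0.28 to 0.23. Under median centring the difference of Brf2 turned to -0.0085.

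TFIIIC recognises the internal promoters of transfer RNA genes. All 6 of its subunit genes had log2 differences below 0, beside 53.2% of all genes, and none passed the threshold. Gtf3c4 gave 7.94, 8.18 and 8.15 in the shRras2 arrays, against 8.51, 8.36 and 8.51 in the pLKO arrays. It was the member nearest to the threshold on its far side (-0.37 ± 0.09 SE, limma adjusted p = 0.059). Gtf3c5 came next, with 8.68 to 8.76 in shRras2 and 8.95 to 9.03 in pLKO (-0.27 ± 0.07 SE, limma adjusted p = 0.0748), and in both genes the groups did not overlap. Gtf3c2 differed by -0.20 ± 0.11 (SE), and Gtf3c1, which encodes the largest subunit, by -0.04 ± 0.09 (SE). Gtf3c3 gave 8.52, 8.78 and 8.60 in the shRras2 arrays, against 8.71, 8.65 and 8.59 in the pLKO arrays, and with Gtf3c6 it lay between -0.03 and -0.01. The sign of Gtf3c3 turned with cyclic loess (0.0043), so the count of 6 rests on a value near 0.

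Among the 6 Pol II subunits measured, Polr2d alone passed the threshold, and its change was not tested against those of the others. Polr2d encodes a subunit of the stalk, the module through which the nascent RNA leaves the enzyme. It gave 8.74, 8.81 and 8.81 in the shRras2 arrays, against 9.27, 9.30 and 9.37 in the pLKO arrays. The shRras2 arrays spanned 0.07 and the pLKO arrays 0.10, while the groups lay 0.46 apart, and the log2 difference was -0.53 ± 0.08 (SE, n = 3 each, limma adjusted p = 0.00617), or 69.3% of pLKO signal. It was also the one member that stayed past the threshold in all 6 fits that left out an array (adjusted p of at most 0.0322).

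Polr2g, the stalk partner of Polr2d, gave 9.41, 9.63 and 9.46 in the shRras2 arrays, against 9.44, 9.31 and 9.43 in the pLKO arrays. Its groups overlapped, and its log2 difference of 0.11 ± 0.09 (SE, 95% interval -0.09 to 0.31) had the opposite sign to that of Polr2d; the difference between the 2 changes was not tested. Polr2b, the large subunit measured here, gave 11.00, 11.02 and 11.10 in the shRras2 arrays, against 11.04, 11.09 and 11.15 in the pLKO arrays, a log2 difference of -0.06 ± 0.08 (SE) with an interval of -0.23 to 0.12. Polr2c and Polr2j, which form the assembly platform of Pol II, and Polr2i, which serves fidelity, differed by -0.14 ± 0.08, -0.12 ± 0.12 and -0.08 ± 0.10 (SE), with overlapping groups. The shRras2 mean of Polr2j (7.81) was under the background level and its pLKO mean (7.93) just over it.

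The subunits that all nuclear polymerases share did not pass the test. Polr2f gave 9.90, 9.97 and 9.80 in the shRras2 arrays, against 10.10, 10.12 and 10.37 in the pLKO arrays, without overlap (-0.31 ± 0.10 SE, limma adjusted p = 0.127). Polr2k, at the other end of this class, gave 8.16, 8.46 and 8.12 in the shRras2 arrays, against 8.00, 8.28 and 8.11 in the pLKO arrays (0.12 ± 0.11 SE). Polr2h, Polr2e and Polr2l differed by -0.17 ± 0.10, -0.15 ± 0.09 and -0.09 ± 0.11 (SE), all with overlap. Polrmt, the single-subunit polymerase of mitochondria, gave 7.34, 7.61 and 7.69 in the shRras2 arrays, against 7.58, 7.53 and 7.64 in the pLKO arrays, with both means under the background level, and its log2 difference was -0.04 ± 0.10 (SE).

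Set side by side, the class medians of the log2 difference were -0.42 for the Pol I subunits (3 genes), -0.15 for those shared by Pol I and Pol III (2), -0.10 for Pol II (6), -0.15 for those shared by all (5) and -0.17 for Pol III (9). The factors had medians of -0.03 for Pol I (5 genes), 0.03 for TFIIIB (3) and -0.12 for TFIIIC (6). These classes follow the symbols: with Twistnb, Cd3eap and Znrd1 the Pol I median was -0.17 (6 genes), and with Crcp that of Pol III was -0.18 (10). No class was tested against another. In all, 32 of the 40 members had a log2 difference below 0 (80.0%), beside 53.2% of all genes. That count was 34 under median centring and 31 with cyclic loess. Among the 35 members that did not pass, the log2 differences ran from -0.37 to 0.17, and the 95% intervals reached as low as -0.58 and as high as 0.41, so changes of the size seen in Polr1a are not shown to be absent from every one of them.

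The arrays of a group did not lie equally far from the controls. The median deviation of the 40 members from their 6-array means was -0.13 on shRras2 replicate 4 and -0.05 on both replicates 5 and 6, against 0.06, 0.05 and 0.08 on pLKO replicates 1, 2 and 3. For the Pol I subunits the same medians were -0.30, -0.13 and -0.20, against 0.08, 0.18 and 0.38. Replicate 4 was thus the lowest array for the whole group and for Pol I, and it also had the lowest Rras2 signal. A link between the polymerase values and the Rras2 level of single arrays was not tested. In the subunits shared by all polymerases, alone among the classes, replicate 6 was the lowest (-0.13, against -0.05 on replicate 4). For all genes the medians lay between -0.01 and 0.01.

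**Figure D3:**
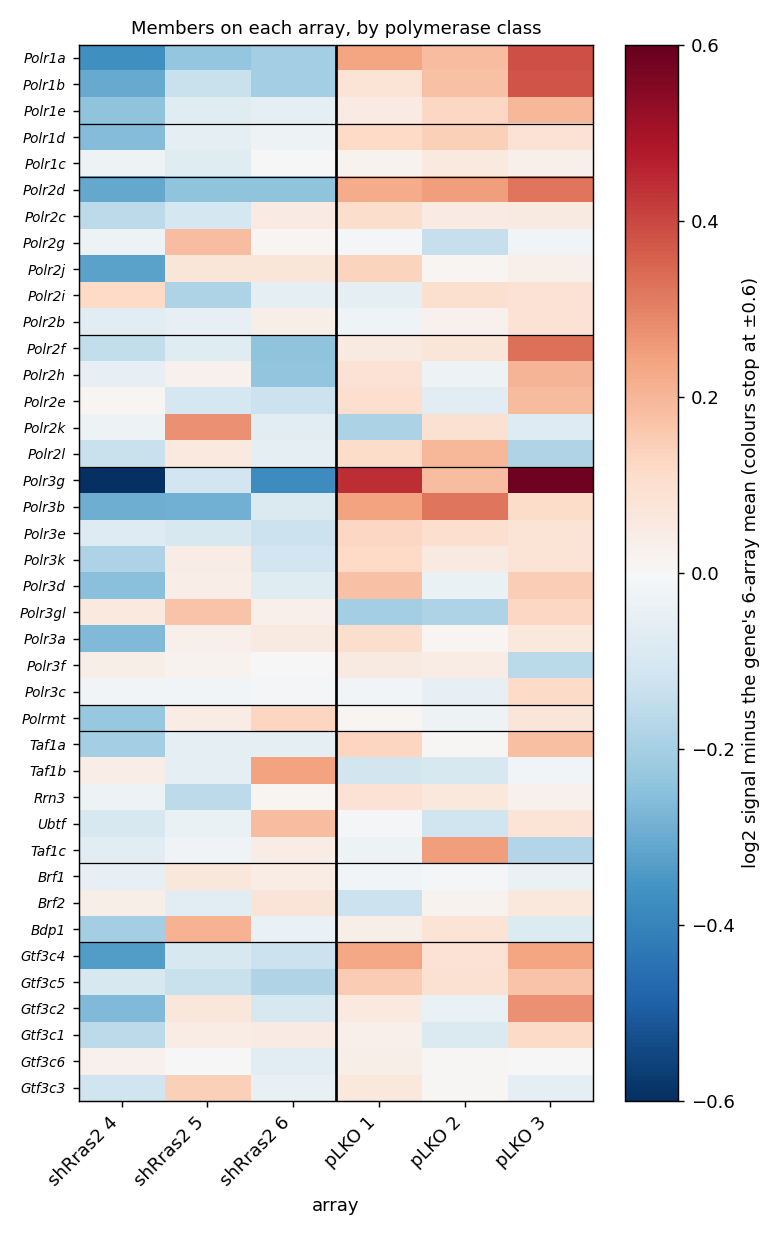
Each member's log2 signal on each array minus its mean over the 6 arrays, in rows grouped by polymerase class; blue is below and red above the mean, and the vertical line parts shRras2 from pLKO arrays. The shRras2 replicate 4 column is the bluest (median deviation -0.13), and Polr1a, Polr1b, Polr2d, Polr3g and Polr3b are blue on all shRras2 arrays and red on all pLKO arrays.

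Partners of the polymerases that the symbol rule does not take were followed as 7 lists, of which 98 of 108 entries were measured. In limma 0 of these genes passed the threshold, and 13 had an unadjusted p under 0.05, beside 19.1% of all genes. The Pol I factors outside the rule had the lowest median (-0.11, 11 genes). Of these genes, 5 had an unadjusted limma p under 0.05, all lower in shRras2 cells, beside 10.0% of all genes lower at that level. Pwp1, a chromatin factor of ribosomal DNA, had the smallest p among them (-0.25 ± 0.07 SE, limma adjusted p = 0.0949). Kdm2b, another of the 5, had both group means under the background level. Myc, a regulator of all nuclear polymerases, gave 10.92, 10.82 and 11.27 in the shRras2 arrays, against 11.29, 11.30 and 11.46 in the pLKO arrays, apart but not past the threshold (limma adjusted p = 0.161).

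In the list of Pol III factors (median -0.05, 11 genes) Crcp, a stalk subunit of Pol III that the rule missed for its name, had the smallest p (-0.19 ± 0.09 SE, limma adjusted p = 0.3). The repressor Maf1 differed by -0.05 ± 0.09 and Gtf3a, the zinc-finger factor TFIIIA, by -0.12 ± 0.07 (SE, limma adjusted p = 0.844 and 0.449). Polymerase assembly factors had a median of -0.08 (13 genes), with Tti1, a subunit of the chaperone complex that works with Ruvbl1 and Ruvbl2, nearest to the threshold (-0.40 ± 0.10 SE, limma adjusted p = 0.0548).

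The general transcription factors of Pol II (27 genes) and its elongation and pausing factors (20 genes) had medians of -0.01 and 0.03. The smallest p-values were those of Taf10, a TFIID subunit (-0.29 ± 0.07 SE, limma adjusted p = 0.063), and of Aff4, a scaffold of the super elongation complex, in the other direction (0.30 ± 0.08 SE, limma adjusted p = 0.0756). The list of mitochondrial transcription factors, which also takes in the DNA replication genes Twnk, Polg, Polg2 and Ssbp1, had a median of -0.01 (13 genes). Tfb2m, the initiation partner of Polrmt, was first by p (-0.33 ± 0.09 SE, limma adjusted p = 0.0687). Most genes of this list, though not Tfb2m, had both group means under the background level, so changes could be missed.

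**Figure D4:**
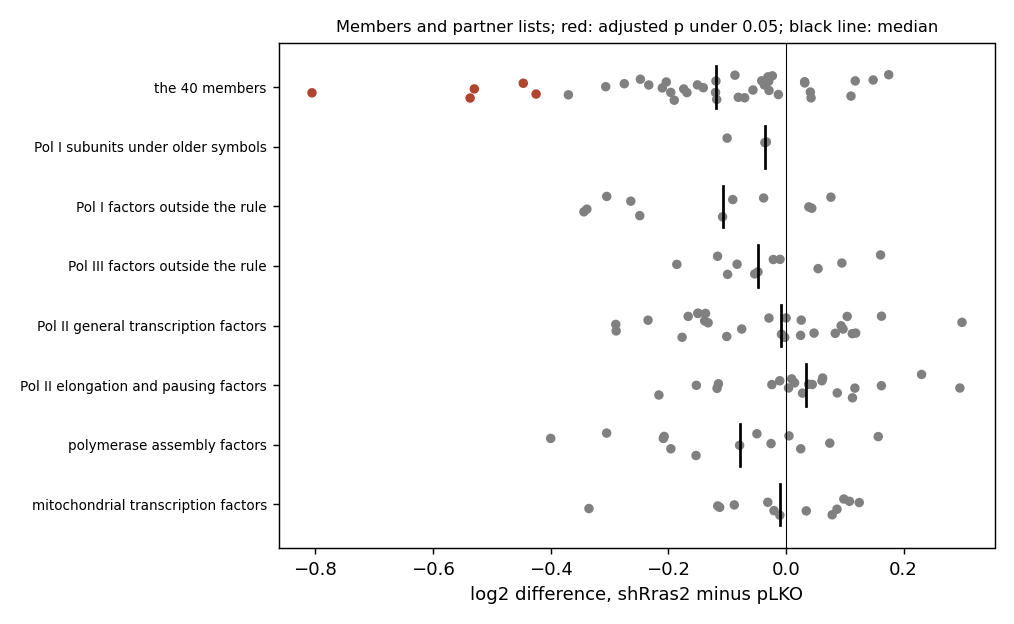
Log2 difference (shRras2 minus pLKO) of every measured gene of the 40 members and of the 7 partner lists (1 point per gene, spread vertically for legibility); red marks an adjusted p under 0.05 and the black line the list's median. The red points stand in the top row alone, and the medians run from -0.12 for the members to 0.03 for the elongation and pausing factors.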

How the data were processed

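RNA from 6 samples (3 shRras2, 3 pLKO) was measured on Affymetrix arrays. Per the submitters' processing notes, the authors ran RMA under R 3.6.3 and deposited 1 log2 signal for each probe set; further settings are not stated in the sources used here. RMA corrects background, quantile normalizes and summarizes probes, and it compresses dim signals. Of 29129 probe sets, 6923 were controls or others without a transcript identifier, 2634 were transcript probe sets with no gene symbol, and 19572 had 1 gene symbol. For 55 genes the brightest of several probe sets was kept, leaving 19505 genes. The members and lists were chosen with earlier results of these data known. The groups were compared in R 4.3.3 by two-sided limma 3.58.1 fits (eBayes moderation, Benjamini-Hochberg over all genes, threshold 0.05). This procedure was also run on simulated data with independent noise, as a check of the code and not of the members' calls. The number of arrays limits the precision (median SE 0.0961). Values on every array are given for members past the threshold, the large subunits and main factors, and the extremes of each class; of the partner lists, the gene with the lowest p and a few fixed genes are named. Alternatives were median centring, cyclic loess, dropping the dimmest 30% of genes, averaging probe sets, eBayes with trend and robust settings, array weights, and leaving out each array. Promoter sequences are from RefSeq (GRCm38.p6) and were found for 33 members. Controls are numbered 1 to 3 and shRras2 samples 4 to 6, so any batch in that order and the group cannot be told apart.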

Additional observations from a re-analysis of the deposited data

How the results depend on the processing

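No paired analysis was possible because the groups share no replicate number. The falls of Polr1a, Polr1b, Polr2d, Polr3g and Polr3b passed under all 6 alternatives on the full set of arrays. Their direction could have changed only under median centring, cyclic loess and array weights, and it was kept there. Each member has a single probe set, so averaging probe sets left its values as they were. Dropping dim genes or changing the eBayes settings alters the p-values alone. With eBayes trend and robust settings 8 members passed instead of 5 (Gtf3c4, Gtf3c5 and Polr2f besides), and 1908 genes in all, 965 higher and 943 lower, instead of 1017. Under median centring and with array weights 6 members passed (Gtf3c4 besides), and without the dimmest 30% of genes 7 did (Gtf3c4 and Gtf3c5 besides). Adding the subunits that the symbol rule misses, chosen after seeing the data, gave medians of -0.17 for Pol I and -0.18 for Pol III. Leaving out 1 array gave 1 to 4 members past the threshold, 392 to 1136 genes in all, 280 to 684 higher and 112 to 452 lower. Of the partner lists, the Pol I factors had 1 call without the dimmest genes and 3 with trend settings; the general transcription factors had 1 under median centring and with array weights and 2 without the dimmest genes and with trend settings; the elongation factors had 1 without the dimmest genes, 1 with trend settings and 0 to 1 when leaving out an array; the assembly factors had 1 under median centring, with array weights and without the dimmest genes and 2 with trend settings; the mitochondrial factors had 1 without the dimmest genes, with trend settings and with array weights. The median of all members was -0.16 under median centring, and that of the Pol I factors ran from -0.12 to -0.0035 when leaving out an array. Signs near 0 turned for Ubtf and Brf2 under median centring (-0.0087 and -0.0085) and for Gtf3c3 with cyclic loess (0.0043). Leaving out 1 array, differences ran from -0.052 to 0.088 for Ubtf, -0.026 to 0.071 for Brf2, -0.13 to 0.073 for Bdp1, -0.088 to 0.043 for Gtf3c3 and -0.11 to 0.067 for Polrmt. The causes were not tested. Both group means of Polr3gl, Polrmt and Brf2 and the shRras2 means of Polr2j and Polr3g lay under the background level, which limits what can be seen for them.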

Other observations

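The members' median promoter window held 20.5 CG dinucleotides, beside 7 over all 32851 windows of the same length. All windows include those of genes not tested here, and the windows of the tested genes were not counted apart. So the richness is not shown to be particular to the members. A gene with several windows, such as Ubtf, entered once for each.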
